A study of Mus musculus with 38 samples.

Results

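The genes described here are 34 genes of protein folding and stress in the endoplasmic reticulum (ER). They were taken from a list of symbols, and all 34 are among the 31053 gene rows of each of the 4 count tables. The endoplasmic reticulum is the compartment where secreted and surface proteins enter the secretory route, fold, form disulfide bonds and receive their first sugars. When unfolded protein accumulates, the sensors IRE1 (Ern1), ATF6 and PERK start the unfolded protein response, which raises chaperones and degradation factors through XBP1, ATF6 and ATF4. T cells that are activated and secrete cytokines are known to use this machinery, and XBP1 is best known as the factor that expands it in plasma cells.

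The study sequenced RNA of mouse Th17 cells, CD4+ T cells that make interleukin-17, on a C57/B6 background. In the transfer experiments, naive T cells carrying the 2D2 T cell receptor, which recognises a myelin protein, came from CHD1 WT or cKO mice or from GR (glucocorticoid receptor) WT or cKO mice, were differentiated in culture into cells the submitters call Th17Inf, and were given to WT recipients to cause experimental autoimmune encephalomyelitis (EAE), a model of multiple sclerosis. At peak disease the 2D2+ cells were sorted from the central nervous system (CNS) or the draining lymph nodes (dLN), which gave 3 CHD1 WT and 4 CHD1 cKO libraries from each of these tissues and, from the CNS only, 4 GR WT and 4 GR cKO libraries. In the culture experiment, naive T cells of spleen and lymph node from WT or IL-23R KO mice became Th17Inf cells and were kept with or without the glucocorticoid dexamethasone (Dex) for 2 days, with 4 libraries for each of WT control, WT with Dex, IL-23R KO control and IL-23R KO with Dex. All recipients were WT, so in the transfer experiments only the donor cells carried a deletion. The promoter that drove the deletion, the Dex dose and the age of the mice are not given in the sources used here, and the genotype tags read KO where the design text reads cKO. Each library came from 2000 sorted cells amplified for 12 cycles. The labels do not say that libraries of a group came from separate animals, so p-values measure the spread between these libraries, which may be technical.

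Libraries held 3148634 to 9159671 counts, of which 13% to 59.3% fell on ribosomal and repeat rows. Levels below are counts per 1000000 counts (CPM) outside those rows on library sizes scaled by the trimmed mean of M values (TMM). The targeted genes check the labels. Nr3c1, which encodes the glucocorticoid receptor, stood at 8.16 to 9.54 CPM in the GR cKO libraries against 17.9 to 26.7 in GR WT. Il23r stood at 2.78 to 6.8 CPM in IL-23R KO control libraries against 7.51 to 10.4 in WT control. That difference was not called by edgeR (log2 -0.74 ± 0.29 (SE), adjusted p = 0.397). With Dex it stood at 1.93 to 3.09 CPM in KO against 7.63 to 20.5 in WT (-2.41 ± 0.33 (SE), edgeR adjusted p = 1.87e-05). Chd1 overlapped between genotypes in the CNS (4.56 to 8.53 against 6.55 to 7.91 CPM) and in the dLN (4.87 to 10.2 against 8.9 to 9.57), so the counts do not check that label and the groups are called by it here. The IL-23R KO libraries with Dex stood apart from the other 12 cultured libraries. Their mitochondrially encoded share was 0.359% to 0.447% against 1.46% to 2.26%, and ribosomal and repeat rows took 30.4% to 37.3% against 13.4% to 25.3%. All 10 T cell markers were detected in every group, but 14 macrophage and microglia markers summed to 5670 to 24400 CPM in the CNS libraries against 221 to 337 in the dLN and 279 to 415 in culture.

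Several of the promoters carry the ER stress response element (ERSE), which ATF6 and NF-Y are known to bind, written CCAAT, any 9 bases and CCACG, or the shorter ERSE-II, written ATTGG, any base and CCACG. RefSeq windows from 250 bases before to 50 after the start site (GRCm38.p6, both strands searched) were found for 27 of the 34 genes, and 9 of the 27 (33.3%) held an ERSE, against 37 of all 27025 genes with a window (0.137%). ERSE-II was present in 2 of the 27 (7.41%) against 12 of 27025 (0.0444%), and the motif TGACGTGG, which XBP1 is known to bind, in 1 of 27 (Txndc5) against 193 of 27025 (0.714%). A match is a description of letters, not evidence of binding. The matches are shown because these elements recur in the genes whose values are given below. Capitals mark the fixed letters, each match is written on the strand that reads as the motif, and the number in brackets is the position, relative to the start site, of the end of the match that lies farther upstream on the gene's strand.
Hspa5 (-65): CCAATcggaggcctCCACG
Hsp90b1 (-212): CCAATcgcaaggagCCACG
Hsp90b1, second match (-107): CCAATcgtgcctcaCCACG
Dnajc3 (-105): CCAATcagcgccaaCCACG
Creld2 (-126): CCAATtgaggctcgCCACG
Pdia6 (-98): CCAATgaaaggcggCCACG
Calr (-162): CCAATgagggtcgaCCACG
Canx (-145): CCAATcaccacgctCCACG
Syvn1 (-44): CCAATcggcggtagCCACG
Derl3 (-156): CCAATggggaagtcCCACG
Dnajb11, ERSE-II (7): ATTGGcCCACG
Herpud1, ERSE-II (-52): ATTGGgCCACG

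Full upstream stretches of 250 bases follow for 4 genes on which the results turn. Hspa5 and Creld2 hold an ERSE, in capitals, and Sdf2l1 and P4hb hold none of these motifs in the window searched. All are written 5′ to 3′ on the strand of the gene and end at the base before the start site (RefSeq, GRCm38.p6).
Hspa5, chr2:34771840-34772089, plus strand: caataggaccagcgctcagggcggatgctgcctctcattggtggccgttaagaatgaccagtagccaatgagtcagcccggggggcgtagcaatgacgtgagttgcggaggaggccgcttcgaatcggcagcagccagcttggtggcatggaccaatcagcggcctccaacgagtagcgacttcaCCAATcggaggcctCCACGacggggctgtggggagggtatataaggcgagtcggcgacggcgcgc
Creld2, chr15:88819396-88819645, plus strand: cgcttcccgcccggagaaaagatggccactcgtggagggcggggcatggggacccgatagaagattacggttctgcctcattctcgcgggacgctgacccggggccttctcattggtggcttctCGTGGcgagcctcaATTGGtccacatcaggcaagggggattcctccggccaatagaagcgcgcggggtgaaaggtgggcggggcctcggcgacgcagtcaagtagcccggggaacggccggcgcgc
Sdf2l1, chr16:17132384-17132633, minus strand: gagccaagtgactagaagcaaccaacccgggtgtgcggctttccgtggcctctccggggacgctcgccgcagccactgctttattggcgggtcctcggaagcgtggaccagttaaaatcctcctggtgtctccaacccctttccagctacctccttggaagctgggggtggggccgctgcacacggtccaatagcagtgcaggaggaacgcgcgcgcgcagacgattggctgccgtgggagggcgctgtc
P4hb, chr11:120573254-120573503, minus strand: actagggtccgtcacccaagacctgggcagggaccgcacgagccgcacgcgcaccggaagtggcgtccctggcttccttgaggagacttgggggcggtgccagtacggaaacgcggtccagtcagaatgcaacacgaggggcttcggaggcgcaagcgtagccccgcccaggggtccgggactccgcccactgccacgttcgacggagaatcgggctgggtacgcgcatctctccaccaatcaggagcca

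Per kilobase of exon, Sec61b, a small subunit of the channel through which proteins enter the ER, had the highest level of the 34 in WT control cultures (326 CPM per kb) and in the CHD1 WT CNS and dLN cells (335 and 273). The sensors Atf6 and Ern1 stood at the other end with Derl3, at 0.607 and 0.333 CPM per kb in WT control cultures. Derl3, a degradation factor, had 0 to 5 counts per library in CHD1 WT and was too low to be tested in the CHD1 and GR tables. The other 33 genes were tested in every comparison, and all 34 in the culture table.

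**Figure D1:**
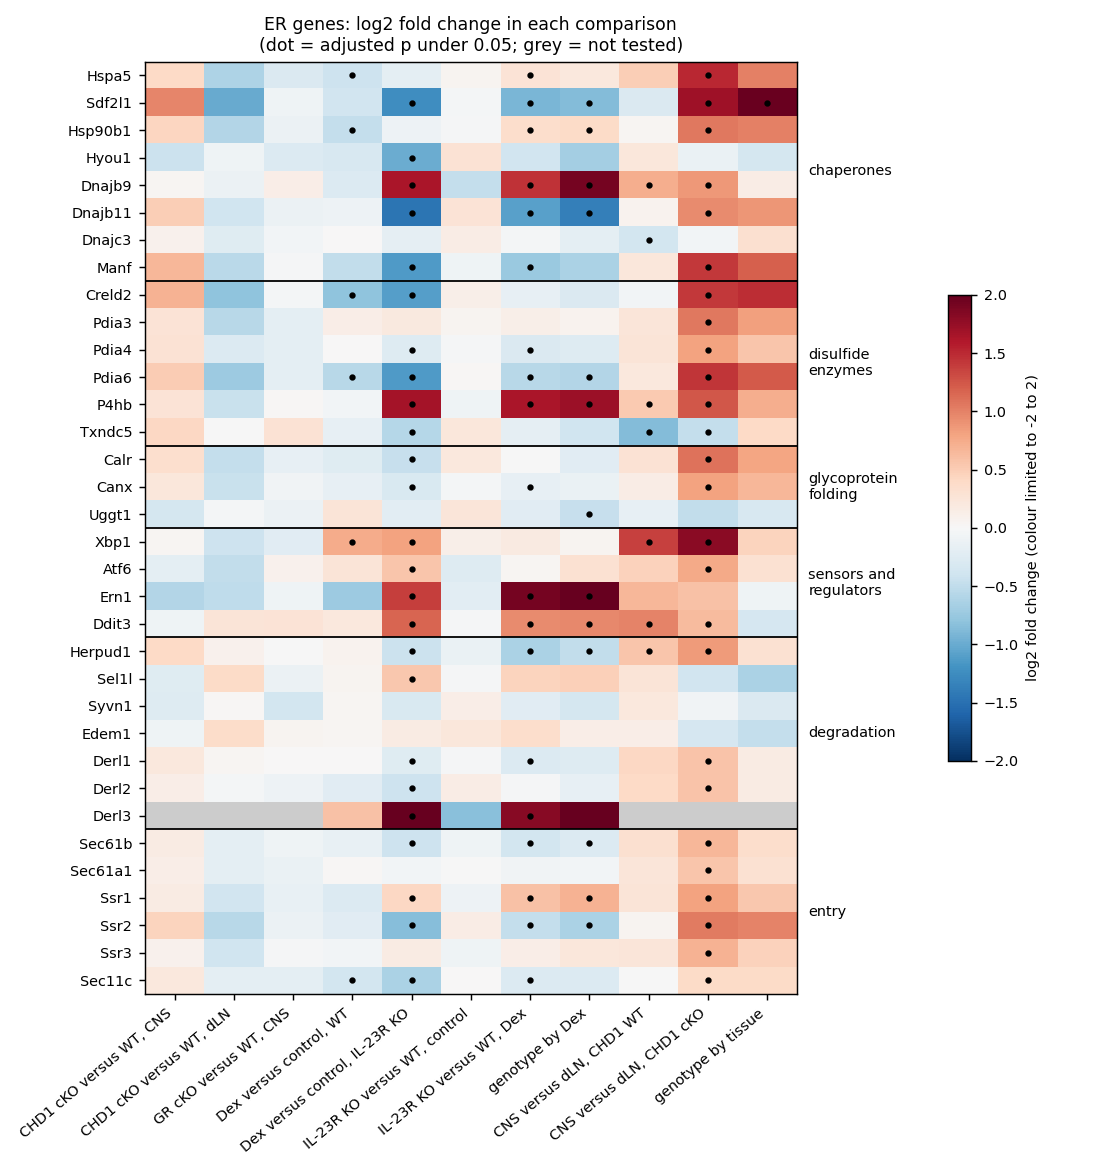
Colour shows the log2 fold change of each of the 34 ER genes (rows, grouped by role) in each comparison (columns), with a dot where edgeR's adjusted p was under 0.05 and grey where Derl3 was not tested. Dots mark 25 of 34 genes for Dex in IL-23R KO cells, where 54.7% of all genes were called. They mark 26 of 33 for CNS against dLN in cells labelled CHD1 cKO, where 47.3% of all genes were called. The columns for CHD1 in the CNS and in the dLN carry none, against 0.00896% and 0.0714% of all genes.

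The first question was whether loss of CHD1 in the transferred T cells changed these genes in the CNS. Every CNS library labelled CHD1 cKO held a higher level of several chaperones and disulfide enzymes than any WT library, while the sensor genes overlapped between genotypes. No ER gene passed the adjusted threshold with edgeR, and only 1 of the 11157 genes tested did (0.00896%). At an unadjusted p under 0.05 there were 11 of the 33 ER genes against 11.9% of all genes, and the median log2 fold change was 0.21 for the ER genes and -0.01 for all genes. In 14 of the 34 every cKO library lay above every WT library, which held for 6.69% of all genes, and in none did every cKO library lie below (5.99% of all genes).

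Sdf2l1, which helps the chaperone BiP keep folding clients soluble, was at 70.2, 101 and 92.2 CPM in the WT CNS libraries and at 169, 216, 132 and 185 in those labelled cKO. The groups did not overlap, and the log2 fold change was 0.98 ± 0.19 (SE), adjusted p = 0.178. Hspa5, which encodes BiP itself, was at 497, 484 and 539.8 CPM in WT and 567, 885, 580 and 689.9 in cKO, with a log2 fold change of 0.40 ± 0.17 (SE), adjusted p = 0.395. Its cKO library 2 was the highest and the other cKO libraries lay closer to WT. Manf, a small BiP-binding protein that cells secrete under ER stress, was at 125, 140.2 and 121 CPM in WT and 172, 231, 159 and 266 in cKO (0.67 ± 0.19 (SE), adjusted p = 0.266). Among the disulfide enzymes, Creld2 was at 84.9, 87.3 and 93.7 CPM in WT and 136, 201, 114 and 130 in cKO (0.69 ± 0.19 (SE), adjusted p = 0.254). Pdia6, a protein disulfide isomerase that associates with BiP, was at 132, 161 and 147 CPM against 187, 241, 196 and 220 (0.51 ± 0.14 (SE), adjusted p = 0.253). For all of these genes no cKO library fell within the WT range.

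The same separation without a call was seen for Hsp90b1, the ER form of HSP90, with a log2 fold change of 0.43, and for the BiP cochaperone Dnajb11 at 0.49. It was also seen for the disulfide isomerases Pdia3, P4hb and Txndc5, for Canx, for the degradation factor Herpud1 and for Ssr2 and Ssr3 of the translocon-associated complex, at 0.08 to 0.44. Xbp1 stood at 188 to 217 CPM in WT and 188 to 244 in cKO, with a log2 fold change of 0.04 ± 0.14. Some genes had a negative difference, with their lowest values in cKO library 3. Ern1 was at 9.7, 10.7, 3.19 and 7.05 CPM in cKO against 8.63 to 14.2 in WT, and Hyou1, an exchange factor for BiP, at 19.6, 28.7, 8.66 and 13.3 against 22.5 to 23.9. Uggt1, Syvn1 and Sel1l, of glycoprotein checking and degradation, were likewise lowest in that library, at 19.6, 15.7 and 18.2 CPM. The macrophage and microglia markers summed to 7220 to 9180 CPM in WT and 7700 to 15500 in cKO, and the plasma cell markers, a cell type with a large ER, to 54.9 to 84.2 and 130 to 696 CPM. Of the latter, the antibody genes Igkc (0 to 9.87 CPM in WT and 17.6 to 564 in cKO), Ighm (52.7 to 70.7 and 87.8 to 133) and Iglc2 (0 to 1.84 and 2.13 to 15.3) did not overlap between genotypes, nor did Tnfrsf17, at 0 in WT and 0.456 to 0.948 in cKO. Jchain was at 0 in 2 of 3 WT and 3 of 4 cKO libraries, and Mzb1 at 0 in all 3 WT libraries and at 0 to 6.61 CPM in cKO. The 7 dendritic cell markers summed to 72.6 to 109 CPM in WT and 138 to 220 in cKO, and the T cell markers, of which Trbc2 gave most, to 37000 to 46100 and 20000 to 46600 CPM. Their part in these differences was not tested. In bulk libraries, a change in cell make-up and a change of RNA per cell cannot be told apart.

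DESeq2, run as an alternative, called 181 genes in all, 4 of them ER genes and all 4 higher in cKO (Sdf2l1, Manf, Creld2 and Pdia6, with adjusted p from 0.000395 to 0.0451). Without a filter on low counts edgeR called 72 genes in all, and Sdf2l1 was the only ER gene among them (adjusted p = 0.0234).

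In the dLN, levels of many of the same chaperones lay below WT in the libraries labelled cKO. There, 27 of the 33 ER genes tested had a negative log2 fold change in cells labelled CHD1 cKO, with a median of -0.39 against 0.02 for all genes. None passed the adjusted threshold with edgeR, where 7 of 9803 genes did (0.0714%), and 15 of 33 had an unadjusted p under 0.05 against 20.1% of all genes. Every cKO library lay below every WT library for 13 of the 34, against 8.03% of all genes, and above for 1 (Sel1l, the adaptor of the degradation ligase, 0.38 ± 0.14 (SE), adjusted p = 0.183), against 8.84%.

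Sdf2l1 was at 113, 126 and 87.8 CPM in WT dLN libraries and 40.6, 50.7, 44.7 and 80.4 in cKO (-1.01 ± 0.23 (SE), adjusted p = 0.0866). Hspa5 was at 342, 427 and 328 CPM against 226, 191, 228 and 309 (-0.61 ± 0.17 (SE), adjusted p = 0.111). Creld2 was at 102, 108 and 70.7 CPM against 50, 40.9, 56.2 and 67.9 (-0.80 ± 0.20 (SE), adjusted p = 0.0985). In all of these the groups were separate, and cKO library 4 was the cKO library nearest to WT. Pdia6 was at 120.1, 165 and 102 CPM against 71.9, 55.8, 81.9 and 101 (-0.73 ± 0.22 (SE), adjusted p = 0.125), and Hsp90b1 at 218, 254 and 225 against 139.8, 118, 149 and 208 (-0.59 ± 0.18 (SE), adjusted p = 0.13). The lectin chaperones that hold glycoproteins during folding followed, with a log2 fold change of -0.47 for Calr and -0.44 for Canx, and so did Ssr2 of the translocon-associated complex (-0.56 ± 0.15 (SE), adjusted p = 0.106). The degradation genes Derl1, Derl2, Herpud1 and Syvn1 differed by -0.04 to 0.09 on the log2 scale, with overlapping groups.

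The number of calls in the dLN depended on the fit and on library 4 of the cKO group. With the replicate number as a block edgeR called 6 ER genes of 613 in all, and without a filter on low counts 5 of 511, all of them lower. Without library 4 edgeR called 990 genes in all, 14 of them ER genes and all 14 lower: Hspa5, Sdf2l1, Hsp90b1, Dnajb11, Manf, Creld2, Pdia3, Pdia6, P4hb, Calr, Canx, Xbp1, Ssr2 and Ssr3, with adjusted p from 0.00319 (Sdf2l1) to 0.0477 (Ssr3). Leaving out any other dLN library gave 0, with 0 to 10 genes called in all. DESeq2 on all libraries called 385 genes, among them 6 ER genes, all lower (Hspa5, Sdf2l1, Creld2, Pdia3, Pdia6 and Ssr2). Of the 10 T cell markers, none of them called, 6 had a higher mean in cKO, among them Cd3e (889 to 959 CPM in WT and 933 to 1180 in cKO) and Cd3d (285 to 351 and 339 to 436), and 4 a lower one. Trbc2, a T cell receptor constant gene, was among the lower ones, at 29000 to 30700 CPM in WT and 7180 to 21000 in cKO, and made up most of the summed level of the list, 33100 to 35200 against 11800 to 25400 CPM. Plasma cell markers summed to 212 to 317 CPM in WT and 258 to 551 in cKO, and B cell markers to 7.33 to 83.7 and 53.9 to 125 CPM. The part of these lists in the dLN values was not tested.

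**Figure D2:**
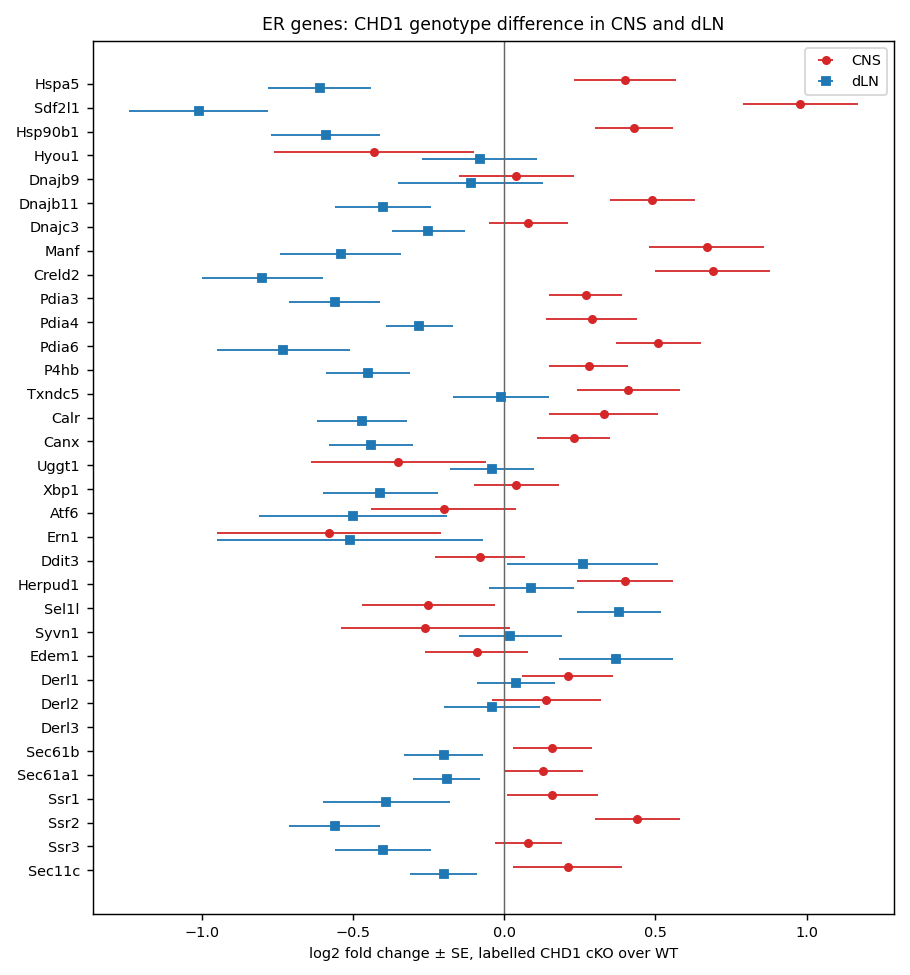
The log2 fold change ± SE of cells labelled CHD1 cKO over WT (horizontal axis) is plotted for each ER gene (vertical axis, by role) in the CNS (circles) and the dLN (squares). Circles lie to the right of zero and squares to the left for 23 of the 33 genes tested, Sdf2l1 being farthest apart at 0.98 and -1.01, and none of the single values passed edgeR's adjusted threshold.

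The 2 tissues were then compared directly. Of the 33 ER genes, 23 (69.7%) had a positive difference in the CNS and a negative one in the dLN, as did 25.9% of the 9591 genes tested in both. The opposite combination was seen for 4 ER genes (12.1%) and 29.8% of all genes. In a joint fit of the 14 CHD1 libraries, the genotype by tissue term passed the adjusted threshold for Sdf2l1 only (1.98 ± 0.32 (SE) on the log2 scale, adjusted p = 0.0388). Of all 11589 genes 5 had such a positive term (0.0431%). An unadjusted p under 0.05 was reached by 16 of the 33, against 18.9% of all genes, and the median term was 0.40 for the ER genes and -0.04 for all. The next terms were Creld2 (1.48 ± 0.29 (SE), adjusted p = 0.0645), Pdia6 (1.22 ± 0.26 (SE), adjusted p = 0.0704), Manf (1.20 ± 0.29 (SE), adjusted p = 0.0777), Hspa5 (1.01 ± 0.25 (SE), adjusted p = 0.0777), Hsp90b1 (1.01 ± 0.23 (SE), adjusted p = 0.0704) and Ssr2 (0.99 ± 0.19 (SE), adjusted p = 0.0645).

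The Sdf2l1 call was lost when 10 of the 14 libraries were left out one at a time, with a term between 1.84 and 2.09 in those fits and an adjusted p of up to 0.153 (without WT dLN library 2). It was kept without cKO CNS library 2 or 3, WT dLN library 3 or cKO dLN library 4. Without that last library 13 ER genes were called, all with a positive term, out of 648 genes, and DESeq2 on all libraries called 13 ER genes out of 563 genes. CNS and dLN libraries came as separate tables, so tissue and table cannot be told apart. Ribosomal and repeat rows took 41.5% to 59.3% of counts in the dLN libraries against 13% to 32.4% in the CHD1 CNS libraries. The remaining counts were 1841381 to 2408206 in the dLN and 3661995 to 5260438 in the CNS. The part of these differences in the tissue values was not tested.

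**Figure D3:**
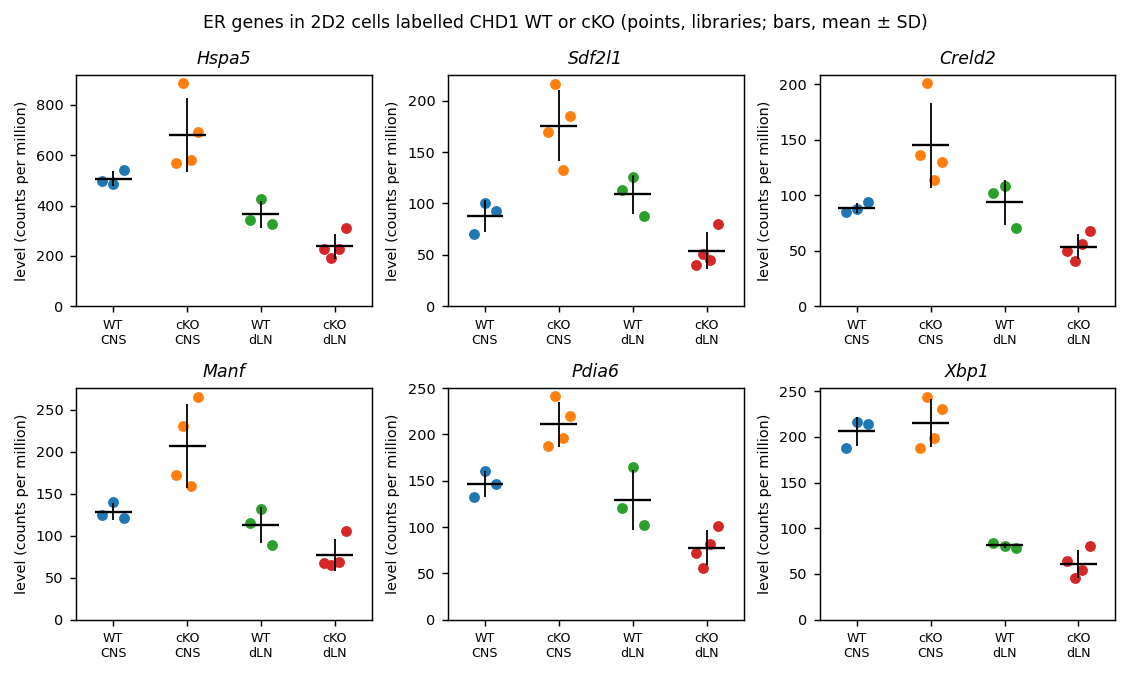
Each point is 1 library's level in CPM (vertical axis) of an ER gene in CHD1 WT and cKO cells of the CNS and dLN, with bars for mean ± SD. For Hspa5, Sdf2l1, Creld2 and Pdia6 the cKO points lie above WT in the CNS and below WT in the dLN, and Xbp1 overlaps between genotypes in both tissues but is higher in the CNS.

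Cells in the CNS and the dLN differed within each genotype as well. Xbp1, the transcription factor that IRE1 activates, was higher in the CNS in both. In WT it stood at 84.4, 81.1 and 78.3 CPM in the dLN and 188, 217 and 214 in the CNS (2.57-fold, log2 1.36 ± 0.18 (SE), adjusted p = 7.83e-05), and in cells labelled cKO at 64.2, 45.1, 54.4 and 80.9 and 188, 244, 198 and 231 (3.49-fold, log2 1.80 ± 0.15 (SE), adjusted p = 6.1e-07). All CNS libraries lay above all dLN libraries. Counts per gene cannot tell spliced from unspliced Xbp1.

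In WT, 5 ER genes were higher in the CNS and 2 lower of 33 tested, against 11.8% of all genes higher and 4.93% lower (16.7% in either direction). Besides Xbp1, the higher genes were Ddit3, which encodes the stress factor CHOP (0.99 ± 0.23 (SE), adjusted p = 0.0074), P4hb (0.53 ± 0.13 (SE), adjusted p = 0.0146), Herpud1 (0.55 ± 0.16 (SE), adjusted p = 0.0269) and the BiP cochaperone Dnajb9 (0.72 ± 0.21 (SE), adjusted p = 0.0316). Txndc5, a thioredoxin-domain disulfide enzyme, was lower in the CNS, at 17.4, 18.5 and 20.2 CPM against 31.8, 38.7 and 33.6 in the dLN (-0.87 ± 0.16 (SE), adjusted p = 0.00162), and so was Dnajc3 (-0.37 ± 0.12 (SE), adjusted p = 0.0475). The calls of Xbp1, Ddit3 and Txndc5 were kept whichever library was left out. Those of the other 4 were lost in 3 (P4hb), 4 (Dnajb9), 5 (Herpud1) and 6 (Dnajc3) of 6 such fits. Their adjusted p reached 0.0708, 0.124, 0.106 and 0.153. These fits called 3 to 5 ER genes, of 1311 to 1496 genes in all.

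In cells labelled cKO, 25 ER genes were higher in the CNS and 1 (Txndc5, -0.47 ± 0.14 (SE), adjusted p = 0.0106) lower, against 24.6% of all genes higher and 22.7% lower (47.3% in either direction), with a median log2 difference of 0.80 against -0.02 for all genes. The 25 comprised 6 of 8 chaperones, 5 of 6 disulfide enzymes, 2 of 3 glycoprotein folding genes, 3 of 4 sensors and regulators, 3 of 7 degradation genes and all 6 entry genes. Hspa5 was 2.83-fold higher (1.50 ± 0.16 (SE), adjusted p = 5.98e-06) and Sdf2l1 3.22-fold (1.69 ± 0.21 (SE), adjusted p = 2.41e-05). Among entry genes the difference was largest for Ssr2 (1.04 ± 0.13 (SE), adjusted p = 1.88e-05) and smallest for Sec11c, a signal peptidase subunit (0.38 ± 0.14 (SE), adjusted p = 0.043). The calls of Sec11c and Atf6 were lost in 6 and 3 of 8 fits that left out a library, with adjusted p of up to 0.144 and 0.0621. All 14 macrophage and microglia markers were called higher in the CNS in both genotypes, and Lyz2 among them stood at 602 to 2300 CPM there against 3.54 to 81 in the dLN and at 0 in all cultures. The part of RNA from such cells in the tissue differences of the ER genes was not tested.

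Of 155 other ER genes listed for comparison, 144 were tested between tissues. In WT 25 were called higher in the CNS and none lower, against 11.8% and 4.93% of all genes, and in cKO 76 higher and 6 lower, against 24.6% and 22.7%. Of the 16 genes of the PERK and ATF4 arm tested, 9 were higher in WT and none lower, and 10 were higher and 1 lower in cKO. Nupr1, a stress-induced nuclear protein, averaged 34 CPM in the WT CNS against 1.03 in the dLN (log2 4.94 ± 0.68 (SE), adjusted p = 0.000147), and 42.6 against 0.698 CPM in cKO. Atf3, a transcription factor downstream of ATF4, averaged 34.2 against 1.8 CPM in WT and 61.9 against 1.32 in cKO. Ppp1r15a (GADD34), which reverses the translation block set by PERK, averaged 175 against 15 CPM in cKO (log2 3.52 ± 0.17 (SE), adjusted p = 3.1e-09) and 144 against 9.12 in WT. Chac1, a glutathione-degrading enzyme, averaged 12.6 against 0.647 CPM in WT (log2 4.27 ± 0.70 (SE), adjusted p = 0.000664) and 8.13 against 0.528 in cKO. The dLN libraries held 0 to 2.79 CPM of Nupr1, 0 to 3.66 of Atf3 and 0 to 1.22 of Chac1. There 3 counts were worth 1.22 to 1.57 CPM, so the folds of these genes are imprecise. In cKO, the mTOR inhibitor Ddit4 (log2 -1.50), the ATF6-processing protease Mbtps2 (-1.13) and the glycosyltransferase Alg2 (-1.02) were lower in the CNS.

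The GR comparison asked what loss of the glucocorticoid receptor in the transferred cells does in the CNS. No ER gene was called by edgeR, nor was any of the 11148 genes tested (0%), and DESeq2 called 122 genes with no ER gene among them. The targeted gene Nr3c1, whose groups did not overlap, was itself not called by edgeR (-1.30 ± 0.16 (SE), adjusted p = 0.113). The lack of calls therefore does not show that ER genes were unchanged. An unadjusted p under 0.05 was found for 2 of 33 ER genes against 11% of all genes. The log2 fold change was negative for 27 of the 33, with a median of -0.10 against -0.00 for all genes. Those 2 were Hspa5, at 529, 559.6, 496 and 618 CPM in WT and 421, 498, 384 and 494 in cKO (-0.29 ± 0.11 (SE), adjusted p = 0.36), and Syvn1, the ubiquitin ligase of ER degradation also called HRD1, at 25.4, 23.2, 23.3 and 24.6 CPM against 17.3, 15.5, 20.6 and 21.5 (-0.37 ± 0.13 (SE), adjusted p = 0.353). Syvn1 did not overlap between groups and Hspa5 did by 1 library of each. Pdia4 was the other gene whose cKO libraries all lay below WT (-0.19 ± 0.09 (SE), adjusted p = 0.476), and groups separated this way in 3.82% of all genes. Library 7 of the cKO group had the lowest level of Calr (189 CPM against 293 to 309 in the other cKO libraries), Ssr2 and Pdia6 and the highest of Derl3, with 63 counts against 4 to 8. Plasma cell markers summed to 84.7 to 142 CPM in WT and 150 to 1730 in cKO, with library 7 the highest, and B cell markers to 15.7 to 30.7 and 40.4 to 142 CPM. T cell markers summed to 28500 to 40300 and 22100 to 29800 CPM. Their part in the GR values was not tested. No ER gene was called when this or any other library was left out.

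The culture experiment asked how Dex acts on Th17 cells with and without the IL-23 receptor. Without Dex, the genotypes did not separate in these genes. No ER gene was called between IL-23R KO and WT control cells by edgeR or DESeq2. None reached an unadjusted p under 0.05 (9.72% of all genes) and none had groups that did not overlap (5.56%). Of all 10813 genes 0.684% were called. The median log2 fold change was -0.01 for the ER genes and 0.00 for all. The errors were wide for genes of low level, where Dnajb9 differed by -0.47 ± 0.30 (SE) and Ern1 by -0.21 ± 0.37.

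In WT cells 5 of 34 ER genes fell with Dex and 1 rose, against 4.2% of all genes lower and 3.88% higher (8.08% in either direction). Hspa5 fell from 359, 362, 330.3 and 338 CPM in control libraries to 276, 268, 254 and 245 with Dex (-0.42 ± 0.10 (SE), adjusted p = 0.0135), and Hsp90b1 from 328, 323, 303 and 342 to 254, 249.5, 217 and 213 (-0.47 ± 0.07 (SE), adjusted p = 0.000456). Creld2 fell from 61.9, 64.2, 54.4 and 52.3 to 35.4, 37, 29.9 and 30.2 CPM (-0.81 ± 0.15 (SE), adjusted p = 0.00272), to 0.569 of the control level. In each of these genes every Dex library was below every control library. Pdia6 fell as well (-0.55 ± 0.10 (SE), adjusted p = 0.00308), and so did Sec11c (-0.37 ± 0.10 (SE), adjusted p = 0.0262), whose call was lost in 4 of 8 fits that left out a library (adjusted p up to 0.0953, without Dex library 3) and whose control library 1, at 199.9 CPM, was the highest of its group. Xbp1 went the other way, from 232, 237, 268 and 259.5 CPM to 364, 343, 487 and 470.3 (1.67-fold, log2 0.74 ± 0.14 (SE), adjusted p = 0.00307). Manf (-0.50 ± 0.17 (SE), adjusted p = 0.0799), Ssr1 (-0.28 ± 0.09 (SE), adjusted p = 0.0584) and Ssr2 (-0.22 ± 0.08 (SE), adjusted p = 0.0811) were below control in all Dex libraries without a call, and 12 of 34 ER genes showed that separation against 8.18% of all genes, while 2 (Xbp1 and Uggt1) lay above control against 7.82%. P4hb, at 488 to 564 CPM in control and 453 to 549 with Dex, did not separate.

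Of the genes lowered in WT cells, Hspa5, Hsp90b1, Creld2 and Pdia6 carry the ERSE shown above. Among the 11 genes with an ERSE or ERSE-II, 4 were lower and none higher, and among the 16 with a window and neither motif, 0 were lower and 1, Xbp1, was higher. In IL-23R KO cells the same counts were 6 lower and 1 higher of 11, and 5 lower and 7 higher of 16. Of the 7 genes for which no window was found, 1 was lower and 0 higher in WT cells. In KO cells 5 of these 7 were lower and 1 higher. Of all genes, 4.2% were lower and 3.88% higher with Dex in WT cells, and 27.4% and 27.3% in KO cells. A link between motif and Dex response was not tested.

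In IL-23R KO cells, Dex changed 25 of the 34 ER genes, 9 higher and 16 lower (73.5%), in a contrast where 54.7% of all genes were called, 27.3% higher and 27.4% lower. The median log2 fold change was -0.23 against 0.01 for all genes. All 4 sensors and regulators rose. Of the 8 chaperones 4 fell and 1 rose, of the 6 disulfide enzymes 4 fell and 1 rose, and of the 6 entry genes 3 fell and 1 rose. Calr and Canx fell among the 3 glycoprotein folding genes, and of the 7 degradation genes 3 fell and 2 rose.

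P4hb, which encodes protein disulfide isomerase, rose from 588, 415, 535 and 465 CPM in KO control libraries to 1530, 1506, 1570 and 1703 with Dex (3.16-fold, log2 1.66 ± 0.09 (SE), adjusted p = 5.19e-10). The lowest Dex library was well above the highest control. Dnajb9 rose from 6.96, 3.02, 5.22 and 3.18 to 20.9, 11.5, 11.4 and 12.7 CPM (1.64 ± 0.29 (SE), adjusted p = 0.000145), with library 5 the highest. Ern1, the IRE1 sensor, rose from 3.03, 1.76, 3.48 and 1.47 to 5.79, 7.5, 5.13 and 6.51 CPM (1.38 ± 0.36 (SE), adjusted p = 0.00341) and Ddit3 from 100.5, 37.3, 91.2 and 48 to 167, 146, 137 and 166 (1.17 ± 0.23 (SE), adjusted p = 0.000419). Xbp1 rose 1.74-fold (0.80 ± 0.14 (SE), adjusted p = 0.000125). Atf6 (0.56 ± 0.18 (SE), adjusted p = 0.039) and Sel1l (0.54 ± 0.20 (SE), adjusted p = 0.0297) also rose, but both calls were lost without some single libraries (4 and 5 of 8, adjusted p up to 0.184 and 0.109) and without the filter on low counts. Ssr1 rose (0.41 ± 0.09 (SE), adjusted p = 0.000824). Derl3 rose from 3, 0, 2 and 2 counts to 17, 10, 17 and 9 (adjusted p = 0.00083), too few for a precise fold.

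The genes that fell were led by Dnajb11, from 54.2, 80.7, 50.1 and 62.7 CPM to 32.1, 31.3, 15.8 and 12.3 (-1.46 ± 0.24 (SE), adjusted p = 6.67e-05). The 4 Dex libraries spread widely, but all lay below control. Sdf2l1, which acts with Dnajb11, fell from 87.2, 122, 72.7 and 104 to 45.2, 45, 40.7 and 31.9 CPM (-1.25 ± 0.16 (SE), adjusted p = 3.94e-06). Pdia6 fell from 164, 201, 150 and 187 to 76.5, 75.4, 75.5 and 89.1 CPM (-1.14 ± 0.11 (SE), adjusted p = 1.8e-07). Manf (-1.14 ± 0.18 (SE), adjusted p = 4.1e-05) and Creld2 (-1.10 ± 0.16 (SE), adjusted p = 1.57e-05) also fell, and Hyou1 fell to 0.5 of its control level (adjusted p = 0.000265). Of the entry genes, Ssr2 (-0.85), Sec11c (-0.64) and Sec61b (-0.42) fell while Ssr3 and Sec61a1 were not called. Canx, Herpud1, Calr and Txndc5 had log2 fold changes of -0.30, -0.43, -0.46 and -0.57. Pdia4 (-0.26), Derl1 (-0.25) and Derl2 (-0.41) fell as well, and their calls were lost in 2, 3 and 5 of 8 fits that left out a library (adjusted p up to 0.0849, 0.0759 and 0.137). Hspa5 (-0.20 ± 0.10 (SE), adjusted p = 0.0906) and Hsp90b1 (-0.10 ± 0.07 (SE), adjusted p = 0.264), which fell in WT cells, were not called here.

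**Figure D4:**
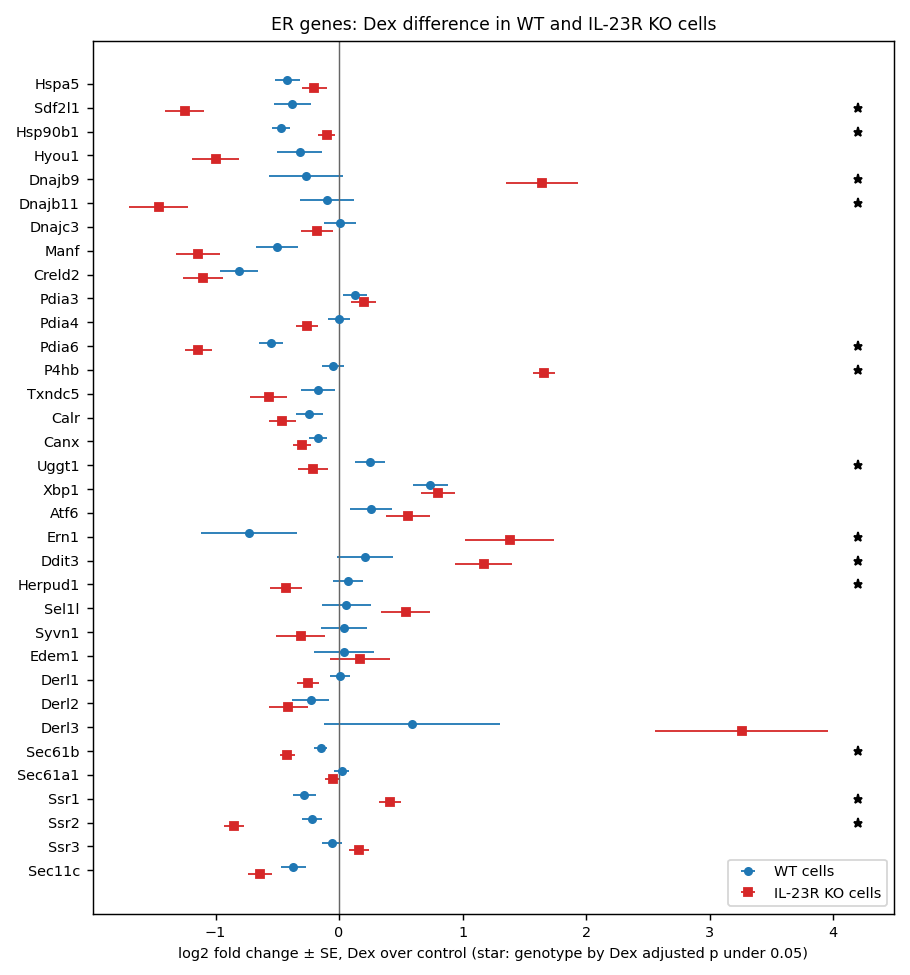
The log2 fold change ± SE of Dex over control (horizontal axis) is plotted for each ER gene (vertical axis, by role) in WT (circles) and IL-23R KO cells (squares), with a star where the genotype by Dex term passed edgeR's adjusted threshold. P4hb, Dnajb9, Ern1 and Ddit3 lie to the right of zero in KO cells, Dnajb11, Sdf2l1 and Pdia6 lie farther to the left in KO cells, and Xbp1 lies at 0.74 and 0.80.

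Whether Dex acted differently in the 2 genotypes was tested by the interaction term. It was called for 13 of 34 ER genes, 6 positive and 7 negative, against 15% of all genes positive and 17.2% negative (32.2% in all). Among the positive terms P4hb had the smallest adjusted p (1.71 ± 0.13 (SE), adjusted p = 1.24e-07), followed by Ssr1 (0.69 ± 0.12 (SE), adjusted p = 0.000453), Dnajb9 (1.91 ± 0.42 (SE), adjusted p = 0.00218), Ern1 (2.12 ± 0.53 (SE), adjusted p = 0.00562) and Hsp90b1 (0.38 ± 0.10 (SE), adjusted p = 0.00779). The negative terms were Dnajb11 (-1.36 ± 0.32 (SE), adjusted p = 0.00407), Sdf2l1 (-0.87 ± 0.21 (SE), adjusted p = 0.00501), Ssr2 (-0.63 ± 0.11 (SE), adjusted p = 0.000312), Pdia6 (-0.59 ± 0.15 (SE), adjusted p = 0.00624) and Sec61b (-0.28 ± 0.08 (SE), adjusted p = 0.0121). The terms of Ddit3 (0.96 ± 0.33 (SE), adjusted p = 0.0339), Herpud1 (-0.50 ± 0.18 (SE), adjusted p = 0.043) and Uggt1 (-0.46 ± 0.17 (SE), adjusted p = 0.0458) were lost in 9, 11 and 11 of 16 fits that left out a library, with adjusted p of up to 0.0739, 0.0833 and 0.0939. For Xbp1, the term was 0.06 ± 0.20 (adjusted p = 0.832) and for Creld2 -0.29 ± 0.22 (adjusted p = 0.333).

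With Dex in both, 8 ER genes were higher and 11 lower in IL-23R KO than in WT cells, against 22.2% of all genes higher and 23.7% lower (45.9% in either direction). P4hb (3.09-fold), Ern1 (3.76-fold), Dnajb9 (2.72-fold), Ddit3 (1.92-fold), Ssr1 (1.5-fold) and Hsp90b1 (1.28-fold) were higher in KO in every fit that left out a library. Hspa5 and Derl3 were also called higher, each with its call lost in 5 of 8 such fits (adjusted p up to 0.144 and 0.0619). With Dex, Ern1 had 4 to 10 counts per library in WT and 14 to 19 in KO, too few for a precise fold. Lower in KO were Dnajb11 (-1.08 ± 0.24 (SE), adjusted p = 0.00154), Sdf2l1 (-0.91 ± 0.16 (SE), adjusted p = 0.00017), Manf (-0.74 ± 0.18 (SE), adjusted p = 0.003), Herpud1, Pdia6, Ssr2, Sec61b, Pdia4, Derl1, Canx and Sec11c. The calls of Canx and Sec11c were lost in 6 and 5 of 8 fits (adjusted p up to 0.15 and 0.125) and those of Pdia4 and Derl1 in 1, without KO Dex library 5 (adjusted p = 0.053 for each). These comparisons share the KO Dex libraries, which stood apart as given above. Their T cell markers summed to 3280 to 3720 CPM against 4170 to 4920 in the other cultures, with 7 of the 10 called lower after Dex in KO cells and 1 higher. The part of RNA quality and of the T cell share in these values was not tested.

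**Figure D5:**
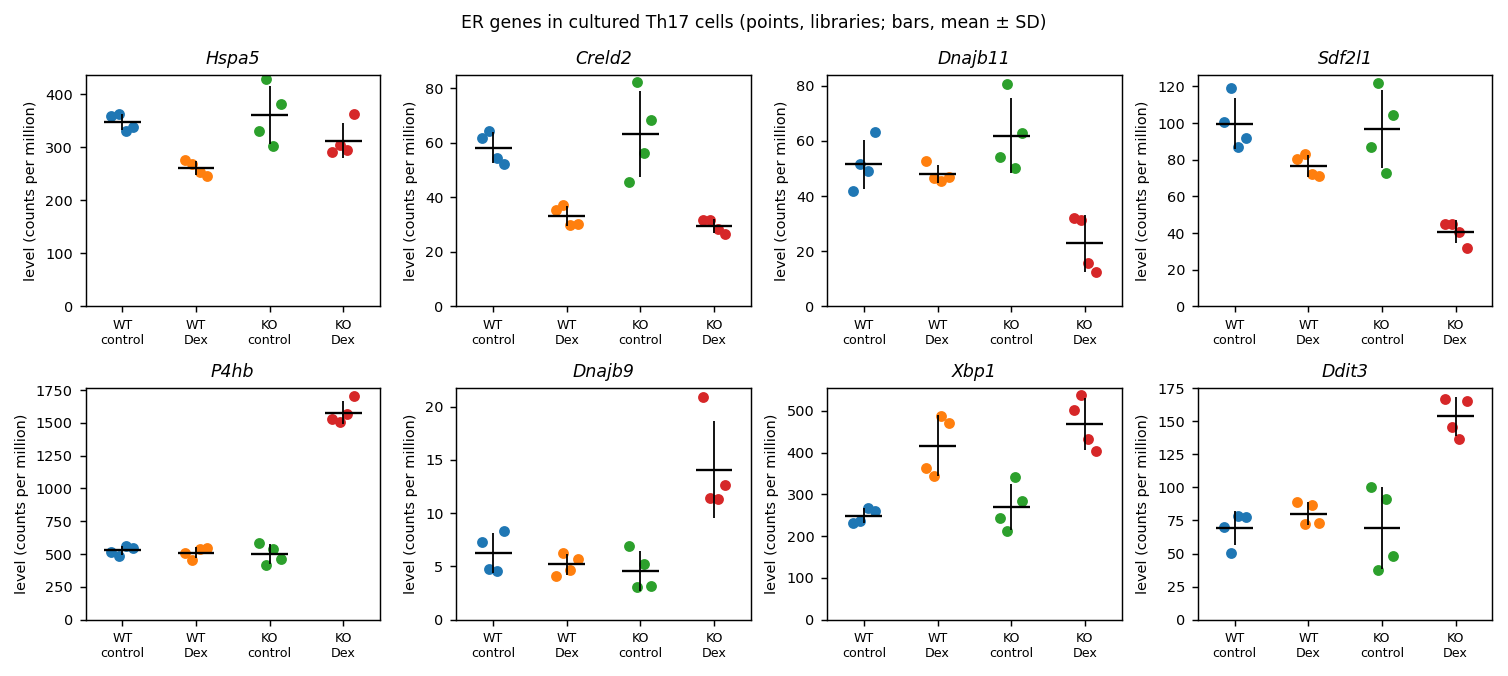
Each point is 1 library's level in CPM (vertical axis) of an ER gene in WT and IL-23R KO cultures without and with Dex, with bars for mean ± SD. Hspa5 and Creld2 are lower with Dex in WT, Xbp1 is higher with Dex in both genotypes, and P4hb, Dnajb9 and Ddit3 are highest in the 4 KO libraries with Dex.

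Of the other listed ER genes, 142 were tested in culture. Dex called 3 higher and 11 lower in WT, against 3.88% of all genes higher and 4.2% lower, and 31 higher and 47 lower in KO cells, against 27.3% and 27.4%. In either direction the KO share was near the 54.7% of all genes. In WT, Ddit4 rose (0.65 ± 0.17, adjusted p = 0.0256), as did Erp29 (0.46) and the coat protein Sec24c (0.32), while Sesn2 (-0.56), the asparagine synthetase Asns (-0.56) and the cargo receptor Lman1 (-0.47) fell. In KO cells, Ero1l, the oxidase that recharges protein disulfide isomerase, rose by 1.64 ± 0.14 (adjusted p = 3.7e-08) with a genotype by Dex term of 1.99 ± 0.19 (adjusted p = 1.39e-06). Ppp1r15a rose by 2.06 ± 0.13 (adjusted p = 1.27e-09), from 21.6 ± 4.32 to 89.1 ± 6.94 CPM (SD, n = 4), and the thioredoxin-like Tmx4 by 1.55. Of 16 genes of the PERK and ATF4 arm tested in KO cells, Dex raised 5 and lowered 6. Besides Ppp1r15a, those raised were Atf4 (0.98 ± 0.06, adjusted p = 1.76e-09), Trib3 (1.28), Ddit4 (1.47) and Vldlr (1.51). Among those lowered, the log2 fold change was -2.10 ± 0.14 for Asns (adjusted p = 2.47e-09) and -3.68 ± 0.39 for Chac1 (adjusted p = 5.54e-07), whose KO Dex libraries held 0 to 1.76 CPM, and the others were Nupr1, Slc3a2, Eif2s1 and Atf3. Of 22 genes of N-glycan addition and trimming tested, Dex in KO cells called 3 higher and 14 lower, against 27.3% and 27.4% of all genes, with the glycosyltransferase Alg8 (-2.03) among the lower ones. Between the genotypes with Dex, the lipoprotein receptor Vldlr was higher in KO (1.20 ± 0.18) and Rpn1, of the oligosaccharyltransferase, lower (-1.08 ± 0.11, adjusted p = 7.98e-07). Without Dex, the prolyl isomerase Fkbp2 was the 1 gene of the list called, higher in KO (0.50 ± 0.09, adjusted p = 0.0188). With edgeR none of the list was called for CHD1 in the CNS or dLN, for the genotype by tissue term or for GR. An unadjusted p under 0.05 was reached by 22 of 144 for CHD1 in the CNS (11.9% of all genes), 21 of 132 in the dLN (20.1%), 29 of 144 for genotype by tissue (18.9%) and 16 of 144 for GR (11%), shares at or near those of all genes.

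Some of the values rest on reads that overlapping genes could share, since the strand setting of the counting is not given in the sources used here. By GENCODE M21 the exons of Manf overlap Dcaf1 on the other strand by 146 bases, Derl2 overlaps Mis12 by 231, Txndc5 overlaps Bmp6 by 224, Syvn1 overlaps Mrpl49 by 91, Ddit3 overlaps Mars by 68 and Pdia6 overlaps Atp6v1c2 by 50. Hsp90b1 shares 415 bases with a pseudogene on the other strand.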

How the data were processed

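RNA of 38 libraries was measured by full-length mRNA sequencing. The authors deposited 4 tables of expected counts per gene symbol, rounded to whole numbers as the values show, made with RSEM 1.3.3 on mm10 per the submitters' processing notes. The annotation and strand setting are not given in the sources used here. The 34 ER genes and all other lists were chosen with earlier results of these data known.

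Genes were tested on the deposited estimated counts with edgeR 4.0.16 (R 4.3.3; filterByExpr, minimum count 10 and total 15; TMM; quasi-likelihood F test) and Benjamini-Hochberg adjustment over all genes tested, with an adjusted p under 0.05 as the call. "Adjusted p" refers to this fit unless DESeq2 (1.42.0) is named. The SE of a log2 fold change was derived from the test, as its absolute value divided by the square root of the F statistic. CHD1 CNS, CHD1 dLN and GR were fitted separately, the 16 culture libraries together, and the 14 CHD1 libraries together for tissue. All 10 groups follow the labels.

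Levels are counts per 1000000 outside 15 ribosomal and repeat rows on TMM-scaled library sizes. A count of 0 allows a level of up to 3 counts, worth 0.486 to 1.57 CPM depending on the library, which covers counting error only. Level per kb uses the union of exons in GENCODE M21.

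Other ER genes were named by a rule: up to 3 called genes in each direction and comparison by size of change, with a mean level of at least 10 CPM in one group. Outside this rule, every called gene of the PERK and ATF4 arm was named for Dex in KO cells. All 34 members could be named in every comparison, and Chd1, Nr3c1 and Il23r only as checks of the labels.

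On simulated counts, 45%, 57%, 64% and 90% of genes changed 2-fold were called in the designs of CHD1 CNS, CHD1 dLN, GR and Dex in WT cells, and 97%, 97%, 97% and 98% of genes changed 4-fold. Each simulation changed 100 genes 2-fold and 100 genes 4-fold, all taken from genes above a floor of mean count. The reported fits called 1, 7, 0 and 874 genes in these designs. Adjusted p depends on how many genes change, so these shares need not hold for the reported fits. No libraries of a group agreed within sampling noise (lowest ratio of chi-square to degrees of freedom 3.09 over 54 pairs).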

Additional observations from a re-analysis of the deposited data

Results flagged for a closer look

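Single libraries stood far from the others of their group in 16 of 272 pairs of an ER gene and a group of 4 (5.88%), about as many as the 1 in 20 that this criterion gives by chance. In the cKO dLN group, library 4 had 106 CPM of Manf against 65.6 to 68.6 in the others and 26.1 CPM of Ssr1 against 15.9 to 17.5. Among GR WT libraries, library 4 was highest for Pdia3 (476 CPM against 418 to 428) and Ssr2 (225 against 177 to 183), and library 3 was lowest for Edem1 (27.4 against 31.9 to 32.4). Library 7 of GR cKO was lowest for Calr (189 CPM against 293 to 309), Ssr2 (142 against 186 to 188), Ssr1 (30.8 against 36.2 to 36.8) and Txndc5 (17.5 against 23.6 to 24.4) and highest for Derl3 (14 against 1 to 2.15). Library 6 of that group had 74.7 CPM of Derl1 against 81.6 to 82.1.

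In the cultures, WT Dex library 3 had 10.3 CPM of Dnajc3 against 13.3 to 13.4, and WT Dex library 2 had 2.84 CPM of Ern1 against 1.14 to 1.36. KO Dex library 5 had 20.9 CPM of Dnajb9 against 11.4 to 12.7. KO Dex library 8 had 89.1 CPM of Pdia6 against 75.4 to 76.5 and 8.57 CPM of Atf6 against 6.17 to 6.57.

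The genotype by Dex term, on the log2 scale, was called by edgeR for 13 of 34 ER genes, against 32.2% of all genes. The term was positive for Ern1 (2.12), Dnajb9 (1.91), P4hb (1.71), Ddit3 (0.96), Ssr1 (0.69) and Hsp90b1 (0.38). It was negative for Dnajb11 (-1.36), Sdf2l1 (-0.87), Ssr2 (-0.63), Pdia6 (-0.59), Herpud1 (-0.50), Uggt1 (-0.46) and Sec61b (-0.28). The calls of Ddit3, Herpud1 and Uggt1 were lost in 9, 11 and 11 of 16 fits that left out a library. For CHD1 genotype by tissue, edgeR called Sdf2l1 (1.98) alone among the ER genes, of 13 genes in all. That call was lost in 10 of 14 such fits.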

How the results depend on the processing

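The alternatives were a test with DESeq2, edgeR scaled by the DESeq2 factors, edgeR on all genes with any count, counts without ribosomal and repeat rows, each library left out, fits of only the groups compared in culture, and the replicate number as a block. No called ER gene changed sign under any of them. Over all checks of single called genes, 1254 kept the call and 133 lost it. For CHD1 in the CNS the reported fit called 0 ER genes of 1 gene in all. DESeq2 called 4 of 181 and edgeR without a filter 1 of 72. In the dLN the reported fit called 0 of 7, DESeq2 6 of 385 and no filter 5 of 511. Leaving out a library gave 0 to 14, of 0 to 990 genes in all. For genotype by tissue the reported fit called 1 of 13, DESeq2 13 of 563 and no filter 7 of 172. Leaving out a library there gave 0 to 13, of 0 to 648 genes in all. For CNS against dLN in WT the reported fit called 7 of 1938, and leaving out a library gave 3 to 5, of 1311 to 1496. The cause of these shifts was not tested.

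The labels do not say whether libraries of the same number are paired, and the reported fits use no pairing. Deviations from the group mean, over genes, had correlations of -0.08 to 0.11 between same-numbered libraries. Such low values do not decide whether the libraries were paired. With the replicate block, edgeR called 6 ER genes of 613 genes in all in the dLN and 0 of 3 in the CNS. For genotype by tissue it called 2 of 52. For Dex it called 6 of 810 in WT cells, 25 of 5790 in KO cells and 15 of 3345 for genotype by Dex. For tissue it called 5 of 1705 in WT and 26 of 5300 in cKO. For GR and for IL-23R KO against WT, no paired analysis was possible because the groups share no replicate numbers. Depth limits Derl3, Ern1 and Atf6, none of which averaged above 2.54 CPM per kb of exon in any group.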
